A study of Danio rerio with 5 samples.

Results

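A group of 114 genes, with the tubule cadherin CDH17 as its marker, was examined in bulk RNA sequencing of whole zebrafish (Danio rerio) kidneys. The members were chosen by measured values, from counts per 1000000 gene counts (CPM) of each library: more than 10 CPM in the library runx1 null 5, at least 2-fold above every other library there, and a level in wild type 3 (WT 3) that stayed under the lowest of the other 4 libraries even when multiplied by 8. Of 32520 gene IDs, 144 met these conditions, and 30 of those were left out by name because they are solute carriers, claudins, aquaporins or a few genes of protein uptake and nephron patterning. High levels in null 5 and low levels in WT 3 are therefore how the group was made and are given as a description only. CDH17, the marker of the group, met the conditions itself, and the group is called the tubule gene group after it.

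The libraries came from 2 genotypes of strain EK at an age of about 2.5 months. WT 1, WT 2 and WT 3 were wild type, and null 5 and null 6 came from their siblings that carried the del8 allele (hg96) of runx1 on both chromosomes, a deletion of 8 bp. Each library was total RNA from a pool of 3 dissected kidneys, with no treatment named in the labels. Nothing ties the numbers of one genotype to those of the other, and p-values measure only the spread between these pools.

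The zebrafish kidney holds nephrons embedded in blood-forming marrow, so that a whole-kidney library mixes tubule RNA with RNA of blood cells. In the proximal tubule, epithelial cells with a dense apical brush border take up filtered proteins, sugars and amino acids and break many of them down, whereas distal segments mainly recover salt, and the sodium-potassium pump at the basal side drives both. Cdh17 is a cell adhesion molecule found along the tubule and duct of the zebrafish embryonic kidney, while in mammals it is best known from the intestine. Transcription factors of the HNF4, IRX and EMX families act in forming the nephron and its segments.

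Gene counts per library were between 27631376 and 33752278, so that 3 counts, taken as the floor, equalled 0.0889 to 0.109 CPM. Levels under this floor are printed as measured and are uncertain. Several libraries stood apart in ways that cross the genotypes. The summed CPM of 16 ovary genes was 1649 in WT 2 and 10917 in null 6 but 7.89 to 17.6 in the other libraries, and that of 14 erythroid gene IDs was 6561 in null 6 against 32802 to 61087 elsewhere. RUNX1, the targeted gene, had 139, 90 and 87 counts in WT 1, 2 and 3, and 184 and 56 counts in null 5 and 6, and counts over the whole gene do not show an 8 bp deletion, so they check no label. A whole-kidney library cannot tell fewer tubule cells from less RNA per tubule cell.

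The members together made up 1980 CPM in WT 1, 2257 CPM in WT 2, 68.6 CPM in WT 3, 11043 CPM in null 5 and 1714 CPM in null 6. The median member stood at 6.92, 7.06 and 0.253 CPM in WT 1, 2 and 3, and at 44.2 and 6.74 CPM in null 5 and 6. WT 1, WT 2 and null 6, the libraries that the conditions do not rank among themselves, lay close together in both summaries. The conditions hold each of them below null 5 and above WT 3, which by itself narrows their differences. Nothing about genotype is read from this closeness. All 114 members had at least 10 counts in WT 1 and in null 5, 112 had them in WT 2 and 113 in null 6, but only 49 had them in WT 3, where 13 members were at 0 and 40 had at most 3 counts. For this reason, ratios to WT 3 are given for single genes only where they mark the limit of the conditions. The factor by which null 5 exceeded the highest other library ranged from 2.01 to 31.9, with a median of 4.44.

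**Figure D1:**
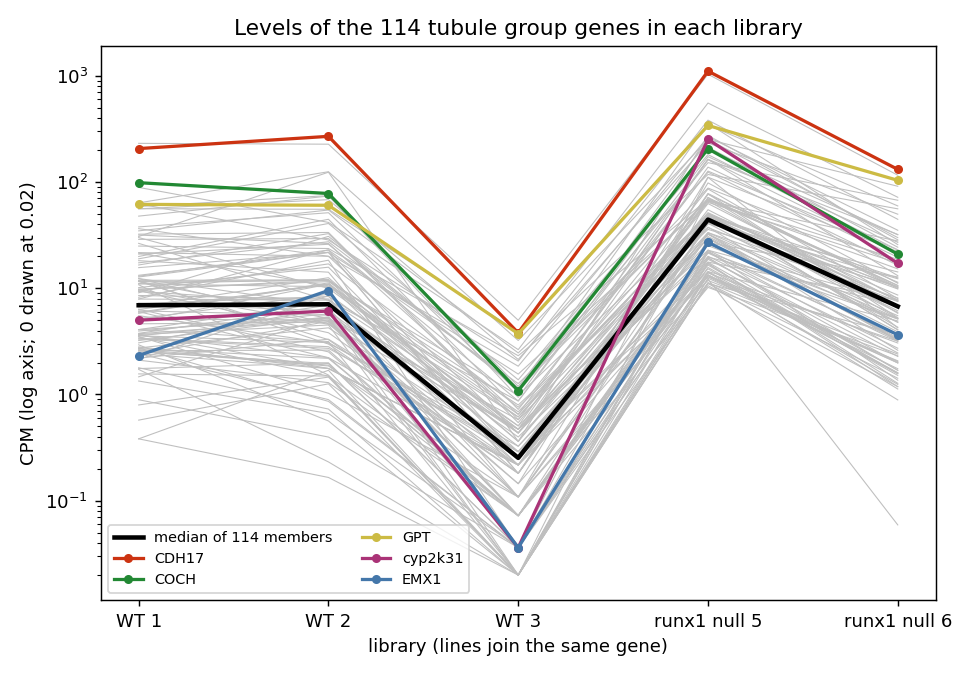
CPM of each of the 114 members (grey lines, log axis, 0 drawn at 0.02) in the 5 libraries, with the median in black and 5 genes in colour. The median stood at 6.92, 7.06 and 6.74 CPM in WT 1, WT 2 and null 6, at 0.253 CPM in WT 3 and at 44.2 CPM in null 5, and the rise to null 5 and the dip at WT 3 are the conditions that chose the genes.

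Apical and surface proteins formed one role group of 16 members. CDH17 (ENSDARG00000005112) had 206, 269 and 3.80 CPM in WT 1, 2 and 3, and 1104 and 131 CPM in null 5 and 6. These values rest on 6463, 8107, 105, 33499 and 4430 counts, and null 6 lay below WT 1 and WT 2. The gene cltrn, for collectrin, a membrane protein that in mice brings amino acid transporters to the proximal brush border, had 88.9, 41.6 and 2.64 CPM in wild type and 553 and 71.7 CPM in null. LRP2 (ENSDARG00000102506), a form of megalin, the large endocytic receptor for filtered proteins, had 62.4, 28.4 and 2.06 CPM in wild type and 382 and 44.5 CPM in null. The gene table does not say which zebrafish copy of megalin this ID is, so it may be the copy lrp2a, one of the names meant to be left out. In both genes WT 2 was the lowest of the 3 unranked libraries, whereas for CDH17 it was the highest.

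Further members of this role anchor or shape the brush border. The gene pdzk1, a scaffold that holds transporters at the apical membrane, had 29.97, 9.98 and 0.507 CPM in WT 1, 2 and 3, and 162 and 21.2 CPM in null 5 and 6. Its small membrane partner pdzk1ip1 had 36.4, 19.95 and 1.85 CPM in wild type and 266 and 35.1 CPM in null. VIL1, or villin, which bundles actin in microvilli, had 7.24, 6.13 and 0.290 CPM in wild type and 43.6 and 9.84 CPM in null. Null 6 lay between WT 1 and WT 2 for both pdzk1 genes and above both for VIL1. The enzyme gene ggt1b, a gamma-glutamyltransferase that splits glutathione at the cell surface, had 2.74, 0.862 and 0.0362 CPM in wild type and 15.7 and 1.60 CPM in null. The receptor phosphatase gene ptprh had 1.34, 0.663 and 0.0362 CPM in wild type and 13.4 and 1.24 CPM in null. For both, WT 3 held a single count.

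A different order of WT 1 and WT 2 was seen for other members of the apical and surface role. PTPRF, another receptor phosphatase, had 9.05, 30.8 and 1.12 CPM in WT 1, 2 and 3, and 69.2 and 10.6 CPM in null 5 and 6. VILL, a relative of villin, had 7.91, 23.0 and 0.253 CPM in wild type and 54.8 and 6.73 CPM in null. In both, WT 2 stood more than 2-fold above WT 1 and null 6, which were close to each other. Of the 16 apical and surface members, 6 were at least 2-fold lower in WT 2 than in WT 1 and 3 at least 2-fold higher, where 13.9% and 14.6% of all tested genes were. With scaling by trimmed means (TMM) or by the DESeq2 size factors, the counts were 3 lower and 4 higher, so their balance rests on the scaling. Of 20386 tested genes, 2120 were then lower and 3613 higher with TMM, and 2197 and 3485 with those size factors.

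Ion pumps, channels and transporters were 9 members. The gene atp1a1a.4, a catalytic subunit of the sodium-potassium pump, had 231, 227 and 4.99 CPM in WT 1, 2 and 3, and 1032 and 116 CPM in null 5 and 6. The gene fxyd2, a small regulatory subunit of the same pump, had 58.7, 74.4 and 0.941 CPM in wild type and 251 and 29.95 CPM in null. Both pump genes were thus nearly level in WT 1 and WT 2 and lower in null 6. KCNJ1 (ENSDARG00000091232), a potassium channel of the salt-recovering segments in mammals, had 9.31, 7.19 and 0.398 CPM in wild type and 21.6 and 5.13 CPM in null. The other 6 IDs listed as KCNJ1 had at most 0.415 CPM in a library. KCNJ16, a basolateral potassium channel subunit, had 3.22, 5.30 and 0.0724 CPM in wild type and 17.5 and 1.69 CPM in null. For KCNJ13, a related inward rectifier, the levels were 3.60, 2.22 and 0.0724 CPM in wild type and 40.9 and 4.77 CPM in null. KCNJ13 differed from the other channels named here in that null 6 lay above WT 1 and WT 2.

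Metabolic enzymes were 27 members, several of which are also made in large amounts by the liver. FABP7, a fatty acid binding protein and not an enzyme, is counted among them. FTCD, which carries out a late step of histidine breakdown, had 56.0, 55.3 and 3.87 CPM in WT 1, 2 and 3, and 344 and 59.5 CPM in null 5 and 6. UROC1, an earlier enzyme of the same route, had 21.6, 19.98 and 0.434 CPM in wild type and 64.3 and 17.3 CPM in null. Both histidine genes were close in WT 1, WT 2 and null 6. GPT, alanine aminotransferase, had 61.5, 60.3 and 3.73 CPM in wild type and 339.95 and 104 CPM in null. The mitochondrial enzyme gene pck2, which makes phosphoenolpyruvate for glucose synthesis, had 63.5, 125 and 3.22 CPM in wild type and 251 and 91.1 CPM in null, and was the member closest to the 2-fold limit for null 5. GPT was higher in null 6 than in WT 1 and WT 2, while for pck2 null 6 lay between them.

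Other enzymes act on lipids, nucleosides and foreign compounds. The gene pmt, which methylates phosphoethanolamine on the way to phosphatidylcholine, had 55.9, 68.1 and 2.14 CPM in WT 1, 2 and 3, and 233 and 49.7 CPM in null 5 and 6. The purine nucleoside phosphorylase gene pnp6 had 26.4, 7.69 and 0.869 CPM in wild type and 212 and 24.3 CPM in null. CYP1A1, a cytochrome P450 induced by aromatic hydrocarbons, had 47.7, 73.7 and 1.19 CPM in wild type and 202 and 31.8 CPM in null. The order of WT 1 and WT 2 thus differed between enzymes, with pnp6 more than 3-fold lower in WT 2. The P450 gene cyp2k31 had 5.005, 6.10 and 0.0362 CPM in wild type and 252 and 17.2 CPM in null, which put null 5 at 14.7 times the next library. The sulfotransferase gene sult1st3 had 16.5, 32.6 and 0.543 CPM in wild type and 85.9 and 7.999 CPM in null. Among members with at least 100 counts over WT 1, WT 2 and null 6, cyp2k31 was one of the 5 with the highest level in null 6 relative to WT 1 and WT 2, and sult1st3 one of the 5 with the lowest.

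Amino acid enzymes with lower levels in WT 2 than in WT 1 included CTH and ASS1. CTH, which makes cysteine from cystathionine, had 11.8, 2.98 and 0.181 CPM in WT 1, 2 and 3, and 76.6 and 10.2 CPM in null 5 and 6. ASS1, the enzyme that joins citrulline and aspartate for arginine synthesis, had 2.93, 0.563 and 0 CPM in wild type and 17.2 and 1.19 CPM in null. D-amino acid oxidase, DAO, is listed under 3 IDs, of which 2 were members. DAO under ENSDARG00000035603 had 6.31, 10.9 and 0.651 CPM in wild type and 50.01 and 10.2 CPM in null. DAO under ENSDARG00000035601 had 6.34, 2.52 and 0.0724 CPM in wild type and 13.9 and 3.05 CPM in null. The DAO copies were level in WT 1 and opposite in WT 2, but reads that align to more than one place were counted apart, 8.58% to 10.3% of all reads per library, so the split between such copies is uncertain, as it is for dhrs11b.1 and dhrs11b.2, the cyp2k genes and the numbered si:ch211-132b12 genes.

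Transcription factors were 11 members, some of them linked to single nephron segments. HNF4G, a nuclear receptor of absorbing epithelia, had 3.73, 5.004 and 0.0724 CPM in wild type and 22.8 and 3.17 CPM in null. Null 6 was the lowest and WT 2 the highest of the 3 unranked libraries for HNF4G. EMX1, a homeobox factor of distal nephron segments in zebrafish, had 2.33, 9.51 and 0.0362 CPM in WT 1, 2 and 3, and 27.0 and 3.64 CPM in null 5 and 6. HOXB8, a homeobox factor of body-axis position, had 8.22, 18.4 and 0.0362 CPM in wild type and 44.8 and 5.93 CPM in null. Both were more than 2-fold higher in WT 2 than in WT 1. IRX3, a factor of intermediate segments in zebrafish and frog, had 2.71, 2.19 and 0.0724 CPM in wild type and 16.5 and 1.57 CPM in null. HOXB7 was also a member, and HOXB9 fell just outside at 9.95 CPM in null 5. Of the 11 factors, 8 were higher in WT 2 than in WT 1, where 36.7% of all tested genes were. At least 2-fold higher were 4 of them, HOXB8, glis3 and EMX1 included, where 14.6% of tested genes were. None was at least 2-fold lower, where 13.9% of tested genes were. With TMM scaling 5 were at least 2-fold higher and 0 lower, beside 3613 and 2120 of all 20386 tested genes. With TMM, the DESeq2 size factors or upper quartiles, 9 were higher, where 50.6%, 48.1% and 38.9% of all tested genes were.

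Receptors and signalling genes were 10 members. PRLR, the prolactin receptor, through which fish regulate salt uptake, had 12.8, 21.7 and 0.181 CPM in WT 1, 2 and 3, and 77.3 and 5.27 CPM in null 5 and 6. KL, or klotho, which in mammals is the kidney co-receptor of the phosphate hormone FGF23, had 3.32, 2.72 and 0.290 CPM in wild type and 14.3 and 4.92 CPM in null. AVPR2, a vasopressin receptor that in mammals controls water recovery, had 0.893, 0.398 and 0.0362 CPM in wild type and 10.6 and 1.19 CPM in null. Null 6 lay below WT 1 and WT 2 for PRLR and above both for KL and AVPR2. The receptor tyrosine kinase gene mst1rb had 0.383, 1.69 and 0 CPM in wild type and 21.9 and 2.46 CPM in null, with only 12 counts in WT 1.

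Secreted and matrix proteins were 5 members. COCH, or cochlin, an extracellular protein best known from the inner ear, had 98.4, 77.8 and 1.09 CPM in WT 1, 2 and 3, and 205 and 20.9 CPM in null 5 and 6. The mannose-binding lectin gene mbl2 had 2.81, 1.76 and 0.217 CPM in wild type and 33.4 and 5.51 CPM in null. Among members with at least 100 counts over WT 1, WT 2 and null 6, COCH had the lowest and mbl2 one of the 5 highest levels in null 6 relative to the other two. The other 36 members had clone names, no symbol or a role outside these groups. Of these, si:ch211-220m17.5 had 28.8, 29.3 and 1.12 CPM in wild type and 357 and 25.7 CPM in null. The clone-named gene si:ch73-359m17.9 had 30.7, 124 and 0.362 CPM in wild type and 274 and 28.5 CPM in null. The gene ncoa7a, a relative of a nuclear receptor coactivator, had 1.75, 1.99 and 0.0362 CPM in wild type and 110 and 4.24 CPM in null, 26.1 times the next library. The largest factor of the group, 31.9, was that of si:ch73-364h19.1. It had 12, 5 and 0 counts in WT 1, 2 and 3, and 370 and 2 counts in null 5 and 6. Its null 6 level was thus under the floor of 3 counts.

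**Figure D2:**
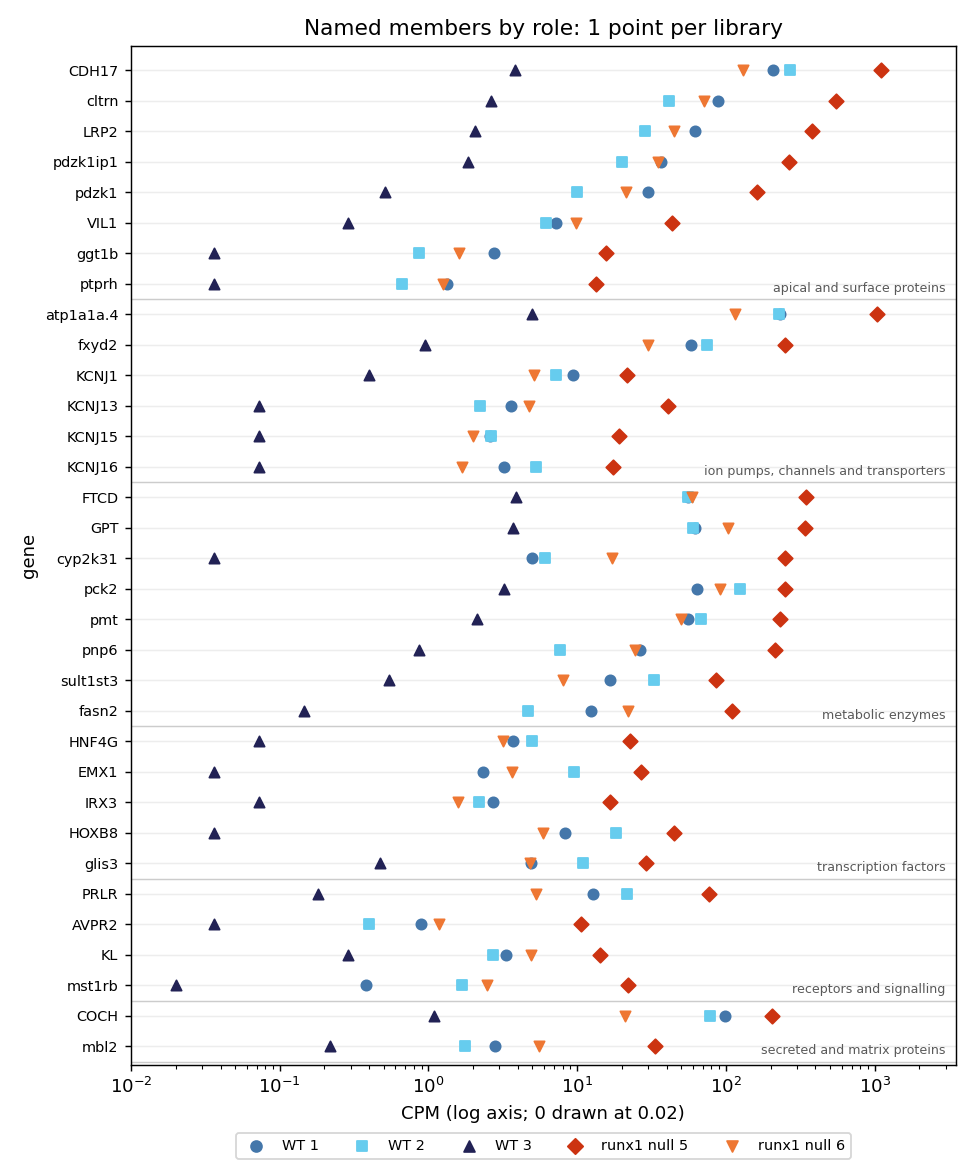
CPM (log axis, 0 drawn at 0.02) of named members in each library, 1 point per library, grouped by role. WT 1, WT 2 and null 6 change places from gene to gene, with WT 2 lowest for LRP2 at 28.4 CPM and highest for EMX1 at 9.51 CPM, and null 6 lowest for COCH at 20.9 CPM.

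The conditions had sharp limits that split genes of near-identical levels. In null 5, dact2 at 10.2 CPM and AVPR2 at 10.6 CPM were just inside, and HOXB9 at 9.95 CPM and gpa33b at 9.88 CPM just outside. For the factor between null 5 and the highest other library, pck2 at 2.01 and tmprss13b at 2.08 were inside, and TMEM72 at 1.94 was outside. For the factor between the lowest other library and WT 3, GAL3ST1 at 8.05 and PTPRF at 8.07 were inside, and NPHS1 at 7.93 and ALPL at 7.83 outside. NPHS1, or nephrin, is a podocyte gene. Its level in WT 3, 0.0724 CPM, was under the floor of 3 counts, and GAL3ST1 had only 6 counts there. The side of the limit on which such genes fall is thus uncertain.

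Genotype was compared over all 20386 genes with enough counts, all 114 members among them, by edgeR's quasi-likelihood test. No member, 0 of 114, had an adjusted p-value under 0.05, where 0% of all tested genes were called in either direction, and the smallest adjusted p-value of a member was 0.612. Before adjustment, 6 members reached a p under 0.05 (cyp2k31, ncoa7a, si:ch211-132b12.6, TMEM37, mbl2 and AVPR2), all higher in null, and 3.16% of all tested genes did so in that direction. The DESeq2 Wald test called 0 of 114 members after adjustment, where 0.113% of tested genes were called higher and 0.255% lower, and before adjustment 37 members, all higher in null, where 6.98% of tested genes were. The members' log2 fold changes, null over wild type, ranged from 0.91 to 5.92 with a median of 2.23, against a median of 0.24 over all tested genes. This contrast holds null 5 and WT 3, which chose the members, and nothing is read from it.

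For CDH17 the log2 fold change was 1.90 with a standard error of 1.56, and its adjusted p-value in edgeR was 0.631. It was 1.86 with a standard error of 1.502 for atp1a1a.4, 2.82 with 1.39 for cltrn, 2.37 with 1.13 for GPT and 0.91 with 1.60 for COCH. Without null 5, the log2 fold change of CDH17 was -0.35, that of atp1a1a.4 -0.47 and that of COCH -1.54. That of cltrn was 0.68 and that of GPT 1.25 without null 5, so both kept their sign. The median over the members was then 0.30, and with WT 3 also left out, so that WT 1 and WT 2 stood against null 6 alone, it was -0.26 beside -0.09 over all genes tested in that fit. In that fit 70 of 114 members, 61.4%, were lower in null 6, where 51.9% of the genes tested were. By edgeR 0 of 114 passed an adjusted p of 0.05, as did 0% of all genes, and at an unadjusted p under 0.05 there were 2 members lower and 1 higher, where 15.2% and 13.2% of genes were. Null 6 lay above both WT 1 and WT 2 for 30 members, 26.3%, where 42.3% of tested genes did.

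The conditions do not order WT 1, WT 2 and null 6, but they hold each of them below null 5 and above WT 3, which by itself narrows the differences between them and makes large ones rarer than among all genes. Each difference is that of 1 library from another and has no replicate check. On the scale of log2(CPM + 0.5), null 6 minus WT 1 had a median of -0.09 over the members and -0.13 over all tested genes. Null 6 minus WT 2 had a median of -0.17 over the members and 0.14 over all tested genes, and WT 2 minus WT 1 a median of 0.02 and -0.20. Single members differed by more than these medians, and the shares of all tested genes below are not held to those limits. Relative to WT 1, null 6 was at least 2-fold lower for 11 members and at least 2-fold higher for 5, where 33.2% and 28.1% of tested genes were. Relative to WT 2, null 6 was at least 2-fold lower for 23 members and higher for 19, where 25.8% and 32% of tested genes were. Compared with WT 1, WT 2 was at least 2-fold lower for 25 members, 21.9%, against 13.9% of tested genes, and at least 2-fold higher for 14, 12.3%, against 14.6%. With TMM scaling, which moved the all-gene median of WT 2 minus WT 1 to 0.01, the same counts were 15 lower and 27 higher. Of all 20386 tested genes, 2120 were then lower and 3613 higher by at least 2-fold.

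WT 2 and WT 1 were then compared by list. Of the 8 members on the list of brush border and apical proteins, 7 were lower in WT 2 than in WT 1 (cltrn, LRP2, pdzk1ip1, pdzk1, VIL1, ggt1b and ptprh, or 6 of 7 without LRP2) and CDH17 was higher, where 36.7% of tested genes were higher in WT 2. The median difference of the 8 was -0.97, and 5 of them were at least 2-fold lower, where 13.9% of tested genes were. The list as a whole did not show this: its 30 tested genes had a median of -0.33, beside -0.20 over all tested genes. Its sum was 712 CPM in WT 1 and 704 CPM in WT 2. With TMM scaling VIL1 was level to slightly higher, so that 6 of 8 were lower and 2 at least 2-fold so. With that scaling, 10076 and 2120 of all 20386 tested genes were. Over all 16 apical and surface members, 8 were lower in WT 2 and 8 higher, among the latter PTPRF, VILL, clic5b and EPS8L2. Of the 5 members on the list of nephron transcription factors, 4 were higher in WT 2 and IRX3 was lower, under each of the scalings tried. Of the 30 genes left out by name, 25 were lower in WT 2 than in WT 1 with plain sums and 22 with TMM. Among all 20386 tested genes, 12895 and 10076 were. The genes left out include CUBN, the cubilin receptor that works with megalin. It had 99.7, 31.4 and 0.832 CPM in wild type and 675 and 70.5 CPM in null. Beside these differences, WT 2 had 88548 CPM of liver genes against 31992 CPM in WT 1, and 1649 CPM of ovary genes against 17.6 CPM, and their part in the differences was not tested.

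Of the 9 ion pump, channel and transporter members, 6 were lower in null 6 than in WT 1 and WT 2, and 1, KCNJ13, was higher than both. The 4 members on the list of ion pumps and channels, atp1a1a.4, fxyd2, KCNJ1 and KCNJ16, all had lower levels there under each of the 4 scalings, where 41.6% of tested genes did with plain sums. Other genes of that list did not all do so: TRPM6, a magnesium channel, had 2.45 and 2.58 CPM in WT 1 and WT 2 and 5.72 CPM in null 6. The list as a whole was lower in null 6. Its tested genes had a median log2 fold change of -0.80 against WT 1 and WT 2, beside -0.09 over all genes. The list summed to 2459 and 2097 CPM in WT 1 and WT 2 and to 1283 CPM in null 6. Over all members, null 6 was below both for 43, 37.7%, and above both for 30, against 41.6% and 42.3% of tested genes. With upper quartile scaling 65 members were below both and 13 above, beside 10332 and 7171 of all 20386 tested genes. With the DESeq2 size factors 37 were below and 39 above, beside 8334 and 9127 of all tested genes. Members of the metabolic enzyme role were above both for 11 of 27, the binding protein FABP7 among them, and below both for 6. Of tested genes, 42.3% and 41.6% were. With upper quartile scaling these counts were 3 and 13, beside 7171 and 10332 of all 20386 tested genes. With TMM they were 6 and 6, beside 8739 and 8804 of all tested genes. With the DESeq2 size factors they were 12 and 5, beside 9127 and 8334. Null 6 also held 10917 CPM of ovary genes and the lowest erythroid level, 6561 CPM, and the part of either in the members' levels was not tested.

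**Figure D3:**
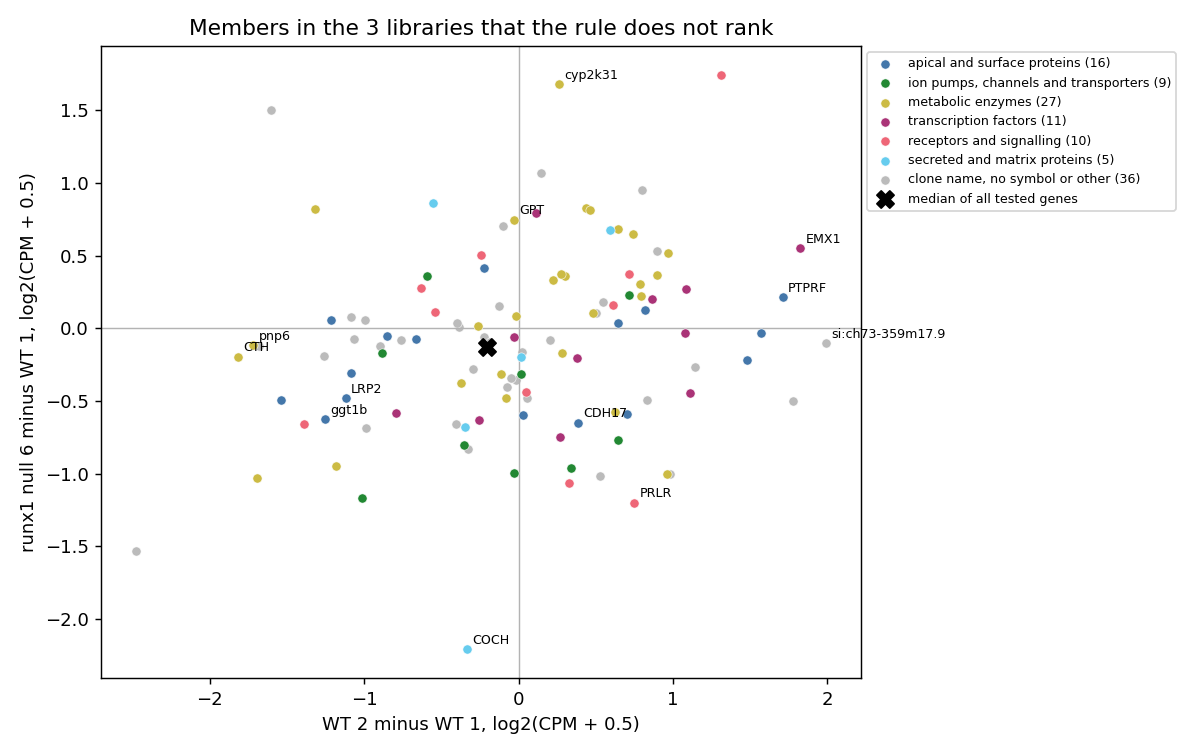
Difference of WT 2 from WT 1 (x axis) and of null 6 from WT 1 (y axis), both on the scale of log2(CPM + 0.5), for each of the 114 members coloured by role, with the median of all 20386 tested genes as a black cross. LRP2, ggt1b, pnp6 and CTH lie to the left, EMX1, PTPRF and si:ch73-359m17.9 to the right, COCH lowest and cyp2k31 near the top.

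Members were also followed relative to CDH17 within each library, which removes differences in depth but makes each ratio depend on CDH17 itself. These are ratios of CPM that are not corrected for gene length and are compared only across libraries. Over WT 1, WT 2, null 5 and null 6, the ratio stayed within a 2-fold range for 34 of the other 113 members, 30.1%, and within a 4-fold range for 87, 77.0%. Over the 19874 tested genes with counts in these libraries, the shares were 1.47% and 11.6%. The conditions ask every member, CDH17 included, to be at least 2-fold higher in null 5 than in each other library. This favours a narrow range among members, and the tested genes as a whole are not held to it. Relative to the ratio in null 5, the median member stood at 0.891 in WT 1, 0.768 in WT 2 and 1.14 in null 6. The ratio differed from that in null 5 by less than 2-fold for 94 members in WT 1, 72 in WT 2 and 92 in null 6. It was more than 2-fold higher for 19 members in null 6, 3 in WT 1 and 1 in WT 2. Neither of these counts was taken over all genes, so nothing is read from them. More than 2-fold lower than in null 5 were 40 members in WT 2, 16 in WT 1 and 2 in null 6, where 4.2%, 1.48% and 1.16% of those 19874 genes were. This order is also that of CDH17 itself, the divisor, at 269, 206 and 131 CPM. In plain CPM, without that divisor, WT 2 was at least 2-fold below WT 1 for 25 members and above it for 14. The part of the divisor in the counts was not tested.

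The members whose levels kept the most even ratio to CDH17 over all 5 libraries were taken from the 48 with at least 10 counts in each. The sodium-potassium pump regulator fxyd2 came first, with a ratio to CDH17 of 0.285, 0.277 and 0.248 in WT 1, 2 and 3, and 0.227 and 0.228 in null 5 and 6. Its root mean square deviation of the log2 ratio was 0.137. Next were ENSDARG00000094974, which has no symbol, at 0.225, the pump subunit atp1a1a.4 at 0.239, CYP1A1 at 0.260 and BIN2 at 0.361. For atp1a1a.4 the ratio was 1.12, 0.844 and 1.31 in WT 1, 2 and 3, and 0.935 and 0.881 in null 5 and 6. This ranking uses null 5 and WT 3, which chose the members, and is a description only.

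**Figure D4:**
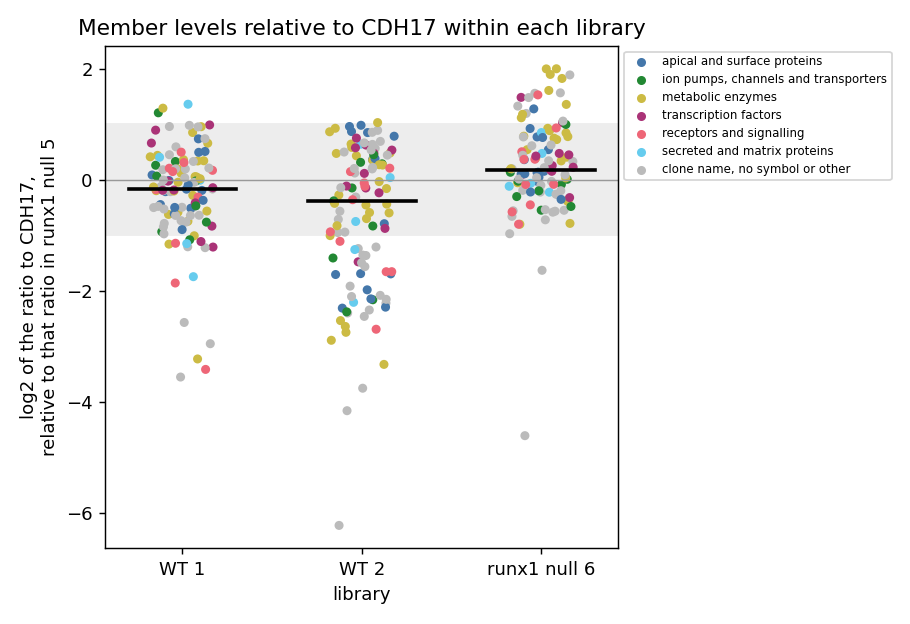
Ratio of each of the other 113 members to CDH17 within WT 1, WT 2 and null 6, relative to the same ratio in null 5, as log2, coloured by role; black bars are medians and the grey band is a 2-fold difference either way. In WT 2, 40 members lie below the band, against 16 in WT 1 and 2 in null 6, in the order of CDH17's own level of 269, 206 and 131 CPM. Above the band lie 1 member in WT 2, 3 in WT 1 and 19 in null 6, a direction not counted over all genes.

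Other nephron genes were read from lists, of which 8 brush border genes, 4 ion genes, 3 metabolic enzymes and 5 transcription factors were members. The pattern of null 5 highest and WT 3 lowest was counted among the tested list genes that did not meet the conditions, and 9.19% of all tested genes had it. It was seen in 5 of 20 brush border genes (25%), 3 of 22 ion genes (13.6%), 21 of 64 metabolic enzymes (32.8%), 10 of 30 genes of cilia (33.3%), 11 of 25 nephron transcription factors (44%) and 9 of 19 podocyte genes (47.4%). The chloride channel genes clcnk and bsnd, which work together in distal segments, both had it. The channel gene clcnk had 7.56, 12.2 and 0.362 CPM in WT 1, 2 and 3, and 20.9 and 3.70 CPM in null 5 and 6. FOXJ1, the regulator of motile cilia, had 2.74, 2.65 and 0.398 CPM in wild type and 13.1 and 2.04 CPM in null. PAX2 under ENSDARG00000028148, a factor of the kidney lineage, had 8.001, 14.8 and 1.01 CPM in wild type and 77.8 and 7.88 CPM in null, and fell short of the conditions only in the WT 3 ratio. Some ciliated, distal, podocyte and proximal genes were thus highest in null 5 and lowest in WT 3, but most genes counted in each list were not. As sums, the ion list had 2291 CPM in WT 3 and 1283 CPM in null 6. The cilia list had 116 CPM in WT 3 and 105 CPM in WT 2, so neither sum was lowest in WT 3. None of the list genes passed an adjusted p of 0.05 in edgeR.

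Markers of neighbouring organs were counted in the same way, since several members are also expressed in intestine or liver. The pattern was seen in 2 of 23 liver genes (8.70%), 3 of 18 intestine genes (16.7%), 1 of 11 genes of exocrine pancreas (9.09%), 0 of 16 ovary genes, 0 of 14 genes of interrenal and chromaffin tissue, 1 of 13 erythroid genes and 0 of 11 muscle genes. The liver list summed to 31992, 88548 and 1778 CPM in WT 1, 2 and 3, and to 49874 and 40199 CPM in null 5 and 6. Like the members it was lowest in WT 3, but it was highest in WT 2. The liver gene fabp10a had 222, 1498 and 20.2 CPM in wild type and 1033 and 693 CPM in null, and no liver list gene was at 0 in every library. The intestine list summed to 396, 856 and 209 CPM in wild type and to 619 and 656 CPM in null. Among its defining genes, FABP2 was at 0.574, 2.65 and 0.253 CPM in wild type and 12.3 and 7.02 CPM in null, and cdx1b was at most 0.296 CPM in any library. The part of liver and intestine in the members' levels was not tested.

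**Figure D5:**
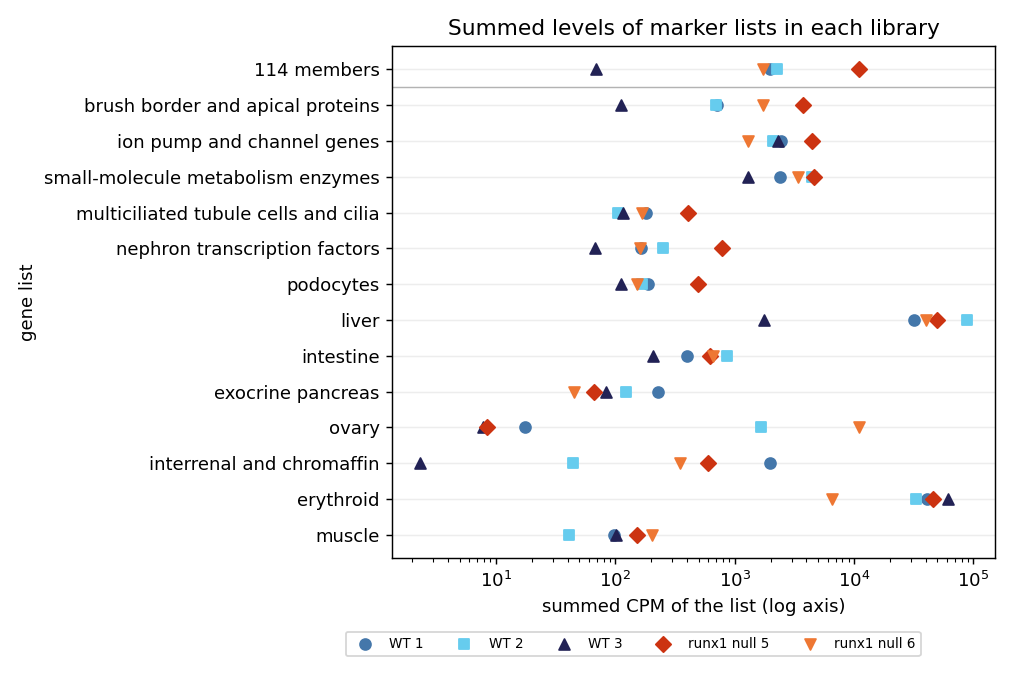
Summed CPM (log axis) of the 114 members and of each of 13 marker lists in the 5 libraries, 1 point per library. The members run from 68.6 CPM in WT 3 to 11043 CPM in null 5, the liver list is highest in WT 2 at 88548 CPM, and the ovary list is highest in null 6 at 10917 CPM.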

How the data were processed

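Bulk RNA sequencing of whole kidneys gave 5 libraries, 3 wild type and 2 runx1 null. Per the labels' protocols, total RNA went through a paired-end TruSeq v2 kit. The authors deposited whole-number read counts per Ensembl gene for each library, not normalized. Per the submitters' processing notes, HISAT2 2.2.1.0, HTSeq 0.11.4, DESeq2 and build GRCz11 were used, with no roles given; the annotation release and strand setting are not given in the sources used here. Reads overlapping several genes (4.40% to 5.24%) and reads with several alignments are listed apart, so overlapping, antisense and near-identical genes are uncertain. Rows that name no gene were kept out of library sizes.

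From these deposited counts, CPM was taken over plain gene totals, and log2 values had 0.5 CPM added. edgeR 4.0.16 (filterByExpr with minimum count 10 and total 15, TMM, robust quasi-likelihood test, two-sided, Benjamini-Hochberg adjustment over 20386 genes, threshold 0.05) compared the genotypes and was tested on simulated data. Alternatives were DESeq2 1.42.0, other scalings, filters, pseudocounts and thresholds, and leaving out libraries. The work ran in R 4.3.3 and in Python 3.11.15 with pandas 2.3.3 and matplotlib 3.10.9. The floor of 3 counts covers counting error only.

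The 13 gene lists held 366 names, of which 327 matched, 58 of them after a copy letter, copy number or both were dropped. The members and these lists were chosen with earlier results of these data known, and the role groups after the values were seen. Named were CDH17, RUNX1, the 15 symbols with the most CPM in null 5, members on a list, the 5 highest and 5 lowest in null 6 relative to WT 1 and WT 2 with at least 100 counts, and the 2 genes on each side of each threshold; any further gene was picked with its values in view, and a few genes that the rule names are not reported here. Symbols are printed as in a table of gene IDs, and 29201 of 32520 IDs have one. Of the members, 16 share their symbol with another ID. GPT, CTH, PTPRF and IRX3 are each listed under 2 IDs, and the levels given for them are those of the member ID.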

Additional observations from a re-analysis of the deposited data

How the results depend on the processing

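Among the conditions that chose the members, asking for one sixteenth in WT 3 left 71 members, and dropping the WT 3 condition or the null 5 fold condition, both chosen after seeing the data, gave 638 and 381. The other thresholds and TMM scaling kept the number within 1.5 times of 114. The count of members past the threshold was 0 under every alternative run in edgeR or DESeq2, with 0 to 37 at an unadjusted p under 0.05. The median log2 fold change ranged from 0.30 to 2.96 when each library was left out, and was -0.26 for WT 1 and 2 against null 6. When each library was left out it ranged from -0.35 to 2.76 for CDH17, from -0.47 to 2.73 for atp1a1a.4 and from -1.54 to 1.79 for COCH, and WT 1 and 2 against null 6 gave -0.93, -1.04 and -2.12. With each library left out, cltrn ranged from 0.68 to 3.74 and GPT from 1.25 to 3.01. Their values for WT 1 and 2 against null 6 were 0.12 and 0.71. Where 1 null library was left, it was assumed to vary like the others. The small medians between unranked libraries changed sign for null 6 minus WT 1 with RLE scaling (0.0694), and, over members of the 3-fold rule, for null 6 minus WT 2 (0.0862) and WT 2 minus WT 1 (-0.0657). The causes were not tested.

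No paired analysis was possible because no number in the labels occurs in both genotypes. The search for promoter motifs was not run, since no sequence was used here. Depth limits members in WT 3, where 40 had at most 3 counts.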

Other observations

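Some members lie side by side in the genome. Of the 114 members, 83 matched a RefSeq protein-coding gene of assembly GRCz12tu by symbol, and 3 pairs of these were neighbours with at most 1 gene between them. How many such pairs other genes would give was not counted, so nothing is read from this number. GEM, a small GTP-binding protein, is next to CDH17, and had 0.574, 1.26 and 0 CPM in WT 1, 2 and 3, and 11.2 and 0.889 CPM in null 5 and 6. The dehydrogenase genes dhrs11b.1 and dhrs11b.2 are adjacent. The pump regulator fxyd2 and the membrane protease gene tmprss13b have 1 gene between them, and tmprss13b had 1.47, 5.34 and 0 CPM in wild type and 11.1 and 1.42 CPM in null. In that assembly no pair overlaps; with a strand setting that is not stated, reads running from one gene into its neighbour were not tested.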
